A study of Mus musculus with 23 samples.

Results

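Thbs1, Ccn1, Ccn2, Ankrd1, Tgfb1, Tgfb2, Tgfbr1 and Tgfbr2 were followed in cultured mouse aortic endothelial cells exposed to plasma from mice of 4 genotypes. These 8 genes were chosen by name, as matricellular targets of TGF-beta signalling or of the transcriptional co-activator YAP, and as ligands and receptors of the TGF-beta pathway. They are 8 of the 24704 named genes on the arrays, each measured by 1 probe set. Thbs1 and Ccn2 had drawn attention through their difference between ApoE-KO and wildtype plasma, so the values of the 8 genes in that comparison are given as a description, without a test.

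The cells were primary mouse aortic endothelial cells (MAOEC) bought from a supplier, labelled C57BL/6J. They were brought to confluence in medium with 10% fetal calf serum (FCS), which was then exchanged for 10% mouse plasma for 48 hours before RNA was isolated. Genotype here refers to the mice that gave the plasma and never to the cells, and 23 Affymetrix arrays were made, 1 per sample. The ApoE-KO group (5 arrays) received plasma of mice lacking apolipoprotein E, a ligand through which lipoprotein remnants are cleared. The ApoE-Stab1-KO and ApoE-Stab2-KO groups (6 arrays each) received plasma of mice that lacked apolipoprotein E together with Stab1 or Stab2, the scavenger receptors of sinusoidal endothelium. These 3 donor genotypes had been fed Western diet for 8 weeks. The Wildtype group (6 arrays) received plasma of wildtype mice whose diet the labels do not give, so donor genotype and diet cannot be told apart in any comparison with wildtype plasma. The sources used here give neither the age nor the sex of the donors. Nothing in the labels says whether replicates were separate cultures or separate plasma donors, so the p-values measure only how far these samples spread, and that spread may be technical.

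As background, TGF-beta ligands are secreted in a latent form, and thrombospondin-1, the product of Thbs1, is a matrix glycoprotein able to activate that form and able to inhibit angiogenesis through the receptor CD36. Active ligand binds the type II receptor, which recruits and phosphorylates the type I receptor, and SMAD proteins then carry the signal to target genes. YAP, the effector restrained by the Hippo kinases, enters the nucleus and binds DNA through TEAD factors, and in endothelium it responds to flow, stretch and cell contact. Ccn1 (also called Cyr61), Ccn2 (also called Ctgf) and Ankrd1 are standard readouts of YAP and TEAD, and Ccn2 and Thbs1 are also induced by TGF-beta.

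The 250 bases before the start of Ccn1, Ankrd1 and Tgfb2 are shown because Ccn1 and Ankrd1 are the YAP target genes with an entry, and Tgfb2 is a ligand gene to set beside them. The sequences are those of RefSeq on GRCm38.p6, printed 5′ to 3′ on the strand of the gene, and 6 of the 8 genes had an entry. Capitals mark the TEAD motif GGAATG and the SMAD motif CAGAC, searched on both strands, so that CATTCC and GTCTG are the same motifs on the other strand.
Ccn1 (chr3:145649986-145650235, minus strand): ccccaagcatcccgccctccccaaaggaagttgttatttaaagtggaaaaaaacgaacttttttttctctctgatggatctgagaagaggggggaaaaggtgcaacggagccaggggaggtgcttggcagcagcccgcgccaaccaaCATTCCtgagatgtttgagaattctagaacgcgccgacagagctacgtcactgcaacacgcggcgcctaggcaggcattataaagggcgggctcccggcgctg
Ankrd1 (chr19:36119845-36120094, minus strand): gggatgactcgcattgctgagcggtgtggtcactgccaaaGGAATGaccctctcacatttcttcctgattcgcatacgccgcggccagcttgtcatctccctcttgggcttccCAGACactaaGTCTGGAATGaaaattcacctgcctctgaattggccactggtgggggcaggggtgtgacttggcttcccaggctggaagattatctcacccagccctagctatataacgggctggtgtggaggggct
Tgfb2 (chr1:186705990-186706239, minus strand): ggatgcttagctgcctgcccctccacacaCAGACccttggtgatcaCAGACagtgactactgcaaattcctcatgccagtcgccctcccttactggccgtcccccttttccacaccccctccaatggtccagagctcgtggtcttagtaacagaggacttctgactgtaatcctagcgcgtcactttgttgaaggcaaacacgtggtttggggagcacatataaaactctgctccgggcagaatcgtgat

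The Ccn1 promoter holds 1 TEAD match, at bases 103 to 98 before the start, and 0 SMAD matches. The Ankrd1 promoter holds 2 TEAD matches, at bases 210 to 205 and 123 to 118, and 2 SMAD matches, at bases 137 to 133 and 127 to 123, of which the one nearer the start shares its last base with a TEAD match. The Tgfb2 promoter holds 0 TEAD matches and 2 SMAD matches, at bases 221 to 217 and 204 to 200. In the other promoters, 1 SMAD match each was found for Tgfbr2 and for the more downstream of the 2 promoters listed for Tgfbr1, and 0 TEAD or SMAD matches for Tgfb1 and the other promoter of Tgfbr1. Among 32851 mouse promoters of the same length, 12.6% hold the TEAD motif and 42.2% hold the SMAD motif. The AP-1 motif TGANTCA and the CArG box of serum response factor, present in 6.7% and 1.5% of promoters, were at 0 in the 7 promoters searched. A match is a stretch of letters and does not show that a factor bound there.

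All values below are log2 values after RMA normalization by the submitters, so a difference of 1 is a doubling. Values over the 24704 named genes ran from 2.52 to 13.94 with a median of 4.31, and any pair of arrays correlated at 0.9921 to 0.9974 over these genes. All endothelial markers of the list (Pecam1, Cdh5, Kdr, Tek, Tie1, Erg, Vwf, Emcn, Cldn5 and Egfl7) lay above the median level of the genes, with a list mean of 10.94 to 11.19 on the 23 arrays. Of the markers of other cells, 5 of 8 for smooth muscle (Myh11, Tagln, Cnn1, Lmod1 and Synpo2), 6 of 8 for fibroblasts, 6 of 7 for macrophages and 3 of 6 for platelets and red cells lay below it. Their list means ran from 4.88 to 5.02, 4.02 to 4.27, 4.56 to 4.71 and 4.42 to 4.60, so only those of fibroblasts lay below 4.31. The markers above the median level were Acta2, Smtn and Des, then Pdgfra and Col1a1, then Cd68, then Pf4, Itga2b and Gp9. Cd68 had group means of 11.10 to 11.29, close to the endothelial list mean. In these 4 lists 0 genes passed the test in any comparison. A gene passed when its Benjamini-Hochberg adjusted p over 24704 genes, from limma's moderated test, was under 0.05.

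Thbs1 and the target genes Ccn2 and Ankrd1 had higher means under each of the 3 ApoE-deficient plasmas than under wildtype plasma, by 1.20-fold to 1.48-fold. Ccn1 had a higher mean under ApoE-KO and ApoE-Stab2-KO plasma and the same mean as wildtype, within 0.02, under ApoE-Stab1-KO plasma. Of the ligand and receptor genes, Tgfb1, Tgfbr1 and Tgfbr2 stayed within 0.12 of wildtype in every group. Tgfb2 had a higher mean than wildtype by 0.16 in ApoE-KO, 0.25 in ApoE-Stab1-KO and 0.20 in ApoE-Stab2-KO. Its difference in ApoE-Stab1-KO was close to that of Ccn2 there, 0.26. Of the 8 genes, 2 passed in ApoE-KO against wildtype, both higher (Thbs1 and Ccn2), where 0.53% of all genes passed and 0.34% passed as higher; since that comparison is the one that drew attention to them, nothing is read from the count. By the same limma test, 0 of 8 passed in ApoE-Stab1-KO against wildtype, where 0.364% of all genes passed, and 4 of 8 had an unadjusted p under 0.05, as did 11.3% of all genes. In ApoE-Stab2-KO against wildtype 0 of 8 passed, where 0.178% of all genes passed, and 4 of 8 had an unadjusted p under 0.05, as did 8.5% of all genes.

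**Figure D1:**
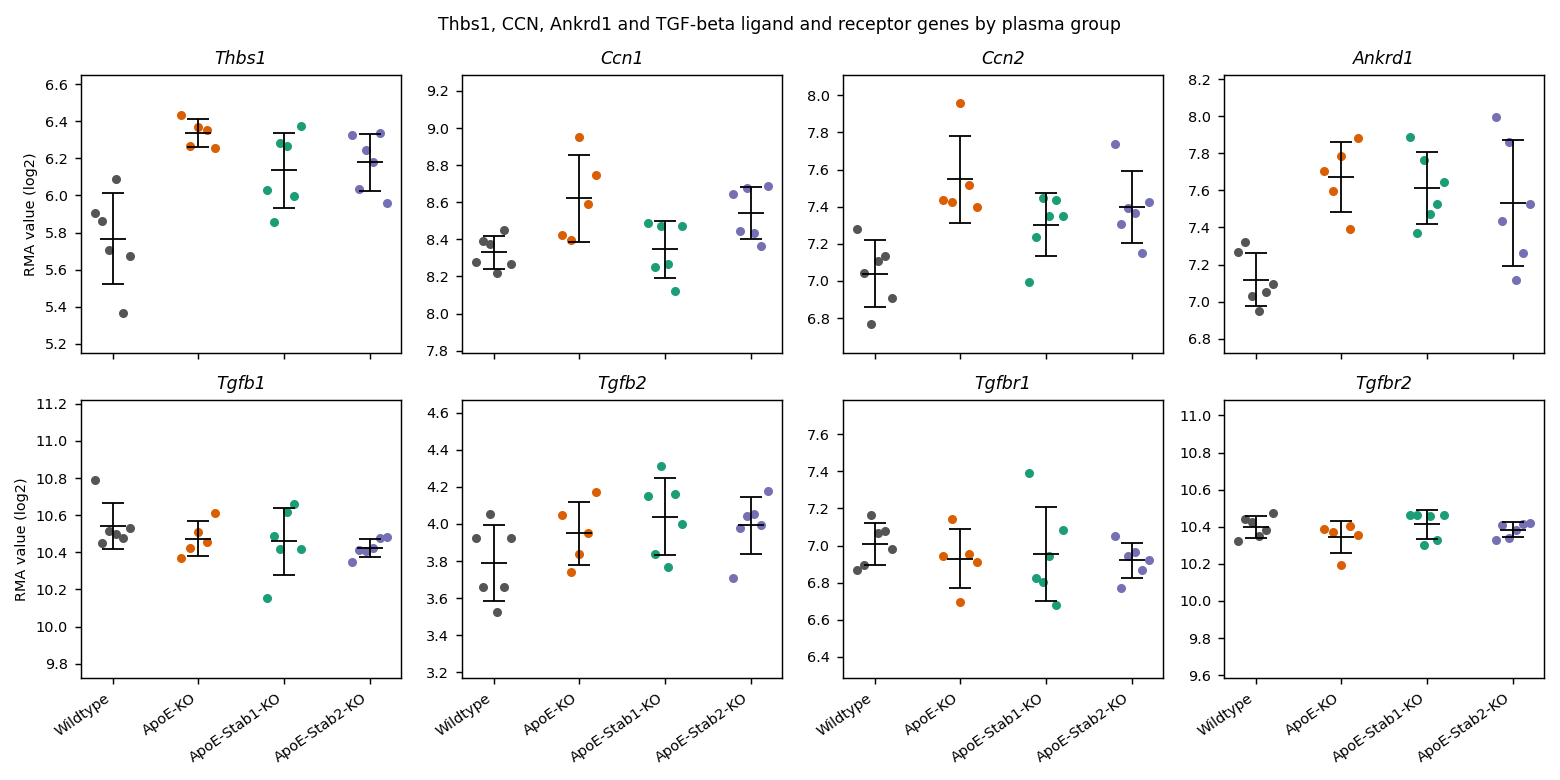
RMA log2 value (vertical axis) of each of the 8 genes on each of the 23 arrays, by plasma group. Points are arrays in order of replicate number and bars are the group mean ± SD; panels share the same span of log2 units but not the same centre. Thbs1, Ccn2 and Ankrd1 in the 5 ApoE-KO arrays all lie above the 6 wildtype arrays, whereas the groups overlap for Tgfb1, Tgfb2, Tgfbr1 and Tgfbr2.

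Thbs1 encodes thrombospondin-1. Its values under wildtype plasma ran from 5.37 through a median of 5.78 to 6.09. Under ApoE-KO plasma the 5 arrays read 6.43, 6.27, 6.37, 6.35 and 6.25. Every ApoE-KO array was above every wildtype array, and the ApoE-KO arrays had the narrowest spread of the 4 groups (SD 0.075, against 0.246 in wildtype). Under ApoE-Stab1-KO plasma Thbs1 ran from 5.86 through 6.15 to 6.38, and 3 of 6 arrays were above the highest wildtype array. Under ApoE-Stab2-KO plasma it ran from 5.96 through 6.21 to 6.33, and 4 of 6 arrays were above it. Both of these groups therefore overlapped with wildtype at their lower ends.

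The difference in Thbs1 between ApoE-KO and wildtype plasma was 0.57 ± 0.10 (log2, SE), a 1.48-fold higher mean. Against the same wildtype arrays, ApoE-Stab1-KO was higher by 0.37 ± 0.10 (1.29-fold; limma adjusted p = 0.119) and ApoE-Stab2-KO by 0.41 ± 0.10 (1.33-fold; limma adjusted p = 0.119). Neither passed the threshold over all genes, although their unadjusted 95% intervals, 0.16 to 0.57 and 0.20 to 0.62, lay above 0. The 3 comparisons share the 6 wildtype arrays, so a low or high wildtype value moves all of them. The order of the group means was ApoE-KO (6.33), ApoE-Stab2-KO (6.18), ApoE-Stab1-KO (6.14) and wildtype (5.77). The intervals between neighbours among the first 3 included 0: ApoE-Stab2-KO minus ApoE-KO was -0.16 (95% interval -0.37 to 0.06) and ApoE-Stab2-KO minus ApoE-Stab1-KO was 0.04 (-0.16 to 0.25). Platelets store thrombospondin-1. The mean of the platelet and red cell markers was 4.43 to 4.58 on the ApoE-KO arrays and 4.47 to 4.58 on the wildtype arrays. Of its platelet genes, Pf4 ran from 5.81 to 6.30 under ApoE-KO and from 5.79 to 6.17 under wildtype plasma. Itga2b ran from 4.67 to 4.88 and from 4.61 to 5.03, and both genes had means above the median level of the genes. Ppbp, at 3.52 to 3.66 and 3.40 to 3.55, was below it. Gp9, also in the list, was above that level, and its range is not given here. The part of platelet RNA in the Thbs1 values was not tested.

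Ccn2 encodes connective tissue growth factor, a matricellular protein. Under wildtype plasma it ran from 6.77 through 7.07 to 7.28, and under ApoE-KO plasma it read 7.44, 7.43, 7.96, 7.52 and 7.40. The groups did not overlap, and ApoE-KO replicate 3 stood 0.44 above the next array of its group. ApoE-Stab1-KO arrays ran from 6.99 through 7.35 to 7.45, with 4 of 6 above the highest wildtype array. ApoE-Stab2-KO arrays ran from 7.15 through 7.38 to 7.74, with 5 of 6 above it.

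The difference in Ccn2 between ApoE-KO and wildtype was 0.51 ± 0.11 (1.42-fold). It was 0.41 ± 0.10 without ApoE-KO replicate 3. ApoE-KO replicate 3 also had the lowest mean of the endothelial markers (10.94, next to 10.95 in ApoE-Stab1-KO replicate 3); the part of this in the Ccn2 value was not tested beyond that omission. Against the same wildtype arrays, Ccn2 was higher by 0.36 ± 0.10 in ApoE-Stab2-KO (1.28-fold; 95% interval 0.14 to 0.57; limma adjusted p = 0.239) and by 0.26 ± 0.10 in ApoE-Stab1-KO (1.20-fold; 0.05 to 0.48; limma adjusted p = 0.329). The order of means was ApoE-KO (7.55), ApoE-Stab2-KO (7.40), ApoE-Stab1-KO (7.30) and wildtype (7.04), the same order as for Thbs1. ApoE-Stab1-KO was below ApoE-KO by -0.25 ± 0.11 (95% interval -0.47 to -0.02; limma adjusted p = 0.864), and without ApoE-KO replicate 3 this was -0.14.

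Ankrd1, an ankyrin repeat protein of muscle and endothelium that is used as a YAP readout, ran from 6.95 through 7.07 to 7.32 under wildtype plasma. ApoE-KO arrays read 7.71, 7.60, 7.79, 7.39 and 7.88. ApoE-Stab1-KO arrays ran from 7.37 through 7.58 to 7.89. Every array of both groups was above every wildtype array. ApoE-Stab2-KO arrays ran from 7.12 through 7.48 to 8.00, the widest spread of the 4 groups (SD 0.340), with 4 of 6 above the highest wildtype array.

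Ankrd1 was higher than wildtype by 0.55 ± 0.13 in ApoE-KO (1.47-fold). It was higher by 0.49 ± 0.12 in ApoE-Stab1-KO (1.41-fold; 95% interval 0.24 to 0.75; limma adjusted p = 0.0801) and by 0.41 ± 0.12 in ApoE-Stab2-KO (1.33-fold; 0.16 to 0.67; limma adjusted p = 0.253), and neither passed. Here the order of means differed from that of Thbs1 and Ccn2, with ApoE-KO (7.67), ApoE-Stab1-KO (7.61), ApoE-Stab2-KO (7.53) and wildtype (7.12), but the intervals between neighbours among the first 3 included 0. The count of genes with no overlap between groups gives the scale: 1.08% of all genes lay wholly higher in ApoE-KO than in wildtype, among them Thbs1, Ccn2 and Ankrd1, and 0.47% lay wholly higher in ApoE-Stab1-KO, among them Ankrd1. For ApoE-Stab2-KO it was 0.636% of all genes and 0 of the 8.

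Ccn1, the immediate early CCN family member, ran from 8.22 through 8.33 to 8.45 under wildtype plasma and read 8.42, 8.39, 8.95, 8.59 and 8.74 under ApoE-KO plasma. ApoE-Stab1-KO arrays ran from 8.12 through 8.37 to 8.49, and ApoE-Stab2-KO arrays from 8.37 through 8.55 to 8.69. In each of the 3 groups 3 arrays were above the highest wildtype array, so all groups overlapped with wildtype. The difference from wildtype was 0.29 ± 0.09 in ApoE-KO (0.21 ± 0.08 without ApoE-KO replicate 3), 0.21 ± 0.09 in ApoE-Stab2-KO (limma adjusted p = 0.487) and 0.02 ± 0.09 in ApoE-Stab1-KO (95% interval -0.16 to 0.19; limma adjusted p = 0.970).

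For Ccn1, as for Thbs1 and Ccn2, ApoE-Stab1-KO had the lowest mean of the 3 ApoE-deficient groups. ApoE-Stab1-KO minus ApoE-KO was -0.27 ± 0.09 (95% interval -0.46 to -0.09), and -0.19 without ApoE-KO replicate 3. ApoE-Stab2-KO minus ApoE-Stab1-KO, which uses 12 arrays with no part in the comparison that drew attention to Thbs1 and Ccn2, was 0.20 ± 0.09 (0.02 to 0.38). Over all genes neither passed, with limma adjusted p = 0.820 and 0.413.

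**Figure D2:**
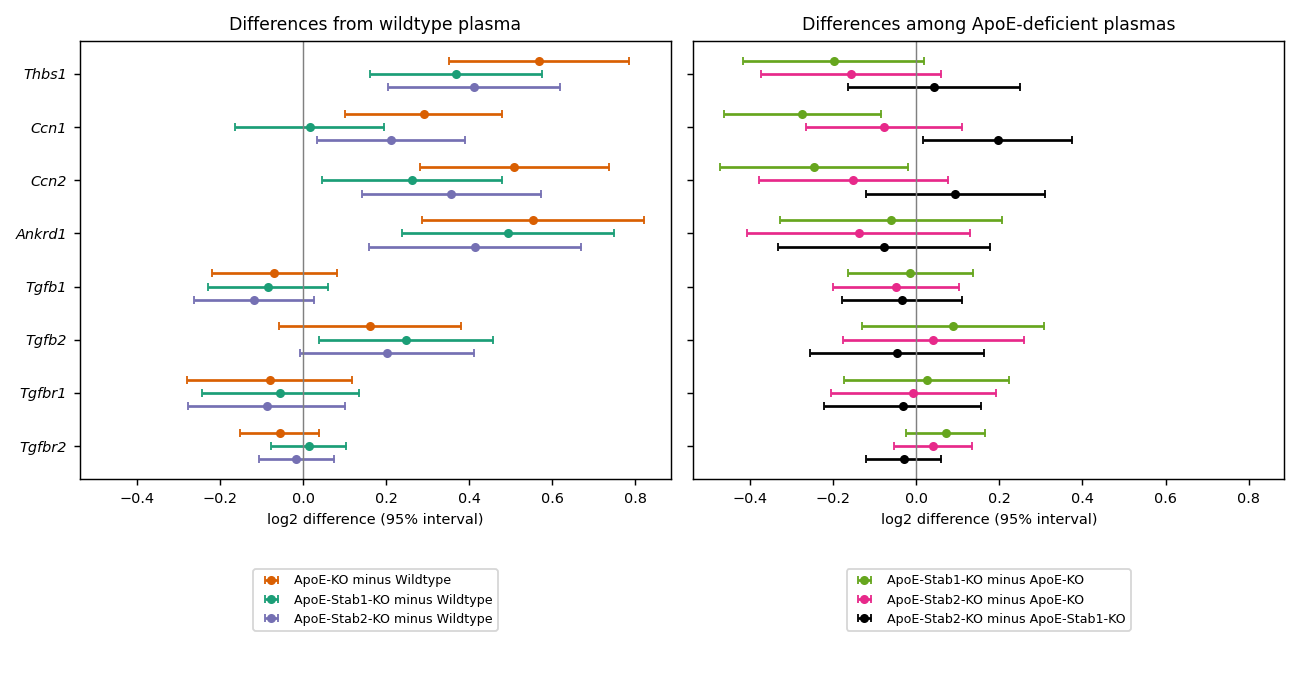
Difference in log2 value (horizontal axis) for each of the 8 genes in the 6 pairwise comparisons, with unadjusted 95% intervals from the limma fit. On the left, the intervals of Thbs1, Ccn2 and Ankrd1 lie above 0 for all 3 ApoE-deficient plasmas against the shared wildtype arrays; on the right, differences among the ApoE-deficient plasmas lie between -0.27 and 0.20.

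Tgfb1, the main TGF-beta ligand of endothelium and platelets, was among the brighter probe sets and ran from 10.45 through 10.51 to 10.79 under wildtype plasma. ApoE-KO arrays read 10.37, 10.42, 10.51, 10.46 and 10.61, ApoE-Stab1-KO arrays ran from 10.15 through 10.45 to 10.66, and ApoE-Stab2-KO arrays from 10.35 through 10.42 to 10.48. All groups overlapped. The wildtype mean was the highest of the 4, with differences of -0.07 ± 0.07 (ApoE-KO), -0.08 (ApoE-Stab1-KO; limma adjusted p = 0.704) and -0.12 ± 0.07 (ApoE-Stab2-KO; 95% interval -0.26 to 0.03; limma adjusted p = 0.687). The highest array was wildtype replicate 1, and without it the ApoE-KO difference was -0.02.

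Tgfb2, a ligand that needs a co-receptor for strong binding to the type II receptor, lay below the median level of all genes, the only member to do so. Its wildtype arrays ran from 3.52 through 3.79 to 4.05 and its ApoE-KO arrays read 4.05, 3.74, 3.84, 3.95 and 4.17. ApoE-Stab1-KO arrays ran from 3.77 through 4.08 to 4.31 and ApoE-Stab2-KO arrays from 3.71 through 4.02 to 4.18. All 3 groups overlapped with wildtype. The differences from wildtype were 0.16 ± 0.11, 0.25 ± 0.10 (95% interval 0.04 to 0.46; limma adjusted p = 0.346) and 0.20 (-0.01 to 0.41; limma adjusted p = 0.609), in the order ApoE-KO, ApoE-Stab1-KO, ApoE-Stab2-KO.

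Tgfbr1, the type I receptor kinase, ran from 6.87 through 7.02 to 7.16 under wildtype plasma and read 6.95, 7.14, 6.69, 6.95 and 6.91 under ApoE-KO plasma. ApoE-Stab1-KO arrays ran from 6.68 through 6.88 to 7.39, where replicate 1 was the highest, and ApoE-Stab2-KO arrays from 6.77 through 6.93 to 7.05. The groups overlapped throughout, with differences from wildtype of -0.08 ± 0.10, -0.06 (limma adjusted p = 0.881) and -0.09 (limma adjusted p = 0.851). Tgfbr2, the type II receptor, had an SD of at most 0.086 in any group, with 10.32 through 10.40 to 10.47 under wildtype plasma, 10.39, 10.37, 10.19, 10.40 and 10.36 under ApoE-KO plasma, 10.30 through 10.46 to 10.46 under ApoE-Stab1-KO plasma and 10.33 through 10.40 to 10.42 under ApoE-Stab2-KO plasma. Its differences from wildtype were -0.06 ± 0.05 (95% interval -0.15 to 0.04), 0.01 (limma adjusted p = 0.944) and -0.02 (limma adjusted p = 0.949). The low ApoE-KO array was replicate 3, the array in which Ccn2 and Ccn1 were highest.

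In the limma comparisons among the ApoE-deficient plasmas 0 of the 8 genes passed. The shares of all genes that passed were 0.00405% in ApoE-Stab1-KO minus ApoE-KO, 0.0243% in ApoE-Stab2-KO minus ApoE-KO and 0.0486% in ApoE-Stab2-KO minus ApoE-Stab1-KO. An unadjusted p under 0.05 was found for 2, 0 and 1 of the 8, and for 5.6%, 8.4% and 11.0% of all genes. The first pair shares the ApoE-KO arrays, so a high ApoE-KO value lowers both. In the comparison of the double knockouts with each other, the intervals of the 7 genes other than Ccn1 included 0, and they bounded the differences at -0.33 to 0.31 for Ankrd1 and Ccn2 together, -0.16 to 0.25 for Thbs1 and -0.12 to 0.06 for Tgfbr2. An interval that includes 0 does not show that the plasmas acted alike.

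Set beside all genes, the median difference of the 8 from wildtype was 0.23 in ApoE-KO, 0.13 in ApoE-Stab1-KO and 0.21 in ApoE-Stab2-KO, where the medians of all genes were 0.0026, 0.0037 and -0.002. Of the 8, 5, 6 and 5 had a positive difference, where 51.2%, 51.8% and 49.0% of all genes did. From the 5th to the 95th percentile the differences of all genes ran from -0.17 to 0.16, -0.17 to 0.16 and -0.15 to 0.15, so Thbs1, Ccn2 and Ankrd1 lay above that range in all 3 comparisons, Ccn1 in ApoE-KO and ApoE-Stab2-KO, and Tgfb2 in ApoE-Stab1-KO and ApoE-Stab2-KO. The ApoE-KO values here come from the comparison that drew attention to Thbs1 and Ccn2. The ApoE-Stab1-KO and ApoE-Stab2-KO comparisons share its wildtype arrays. These medians, counts and positions are therefore a description, and nothing is read from them.

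Other genes of the same pathways were set beside the shares of all genes that passed the limma test against wildtype, 0.53% in ApoE-KO, 0.364% in ApoE-Stab1-KO and 0.178% in ApoE-Stab2-KO, and that had an unadjusted p under 0.05, 10.5%, 11.3% and 8.5%. Of 18 other YAP and TEAD targets, 0 passed in ApoE-KO and in ApoE-Stab2-KO against wildtype, with medians of 0.03 in both. An unadjusted p under 0.05 was found for 6, 2 and 3 of the 18 in ApoE-KO, then ApoE-Stab1-KO, then ApoE-Stab2-KO, the order kept for the lists that follow. In ApoE-Stab1-KO 1 rose and 1 fell (median 0.04): Amotl2, an angiomotin that binds YAP and is itself a YAP target, by 0.25 ± 0.05 (limma adjusted p = 0.028), and Igfbp3, an IGF-binding protein, by -0.34 ± 0.07 (limma adjusted p = 0.0415). Amotl2 ran from 7.34 through 7.42 to 7.57 under wildtype plasma and from 7.59 through 7.66 to 7.79 under ApoE-Stab1-KO plasma, without overlap. Its differences in ApoE-KO and ApoE-Stab2-KO, 0.20 and 0.22, did not pass (limma adjusted p = 0.108 and 0.0899). The Amotl2 call was lost without ApoE-Stab1-KO replicate 6 or wildtype replicate 2, 4 or 6, and the Igfbp3 call without any of 9 of the 12 arrays.

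Of 27 measured TGF-beta and SMAD3 targets outside the 8 genes, 1 fell and 0 rose in each of the 3 comparisons with wildtype, with medians of 0.03, -0.01 and 0.00 and an unadjusted p under 0.05 for 3, 6 and 5. That gene was Pdgfb, the endothelial growth factor that recruits pericytes. It ran from 8.38 through 8.51 to 8.60 under wildtype plasma and from 8.05 to 8.31 over the other 17 arrays, so wildtype overlapped with none of them. The share of all genes lying wholly lower than wildtype is not given here, so nothing is read from that separation. The differences were -0.28 ± 0.05, -0.33 ± 0.05 and -0.31 ± 0.05 (limma adjusted p = 0.00412, 0.000692 and 0.00222), and leaving out any 1 array left each call in place. Fn1, the fibronectin gene, was at 0.19, 0.13 and 0.17 and did not pass (limma adjusted p = 0.183, 0.353 and 0.329). Itga5 was lower, at -0.18, -0.16 and -0.10, and did not pass (limma adjusted p = 0.152, 0.189 and 0.615). Timp1 was at 0.10, -0.11 and 0.15 and did not pass (limma adjusted p = 0.713, 0.604 and 0.551).

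The other CCN and thrombospondin genes, 8 in number, gave 0 calls in all 6 comparisons, with medians of -0.06, -0.02 and -0.06 against wildtype, where 1, 2 and 0 had an unadjusted p under 0.05. Among them Ccn4 was at -0.18, -0.29 and -0.09 (limma adjusted p = 0.402, 0.0801 and 0.789), and Ccn5 at 0.21, 0.19 and -0.04. Of 16 SMAD genes and SMAD regulators 0 passed in any comparison, and 1, 1 and 0 had an unadjusted p under 0.05 against wildtype. Smad7, the inhibitory SMAD that TGF-beta induces, was at -0.25, -0.06 and 0.05 (limma adjusted p = 0.54, 0.92 and 0.951). The 20 other genes for TGF-beta ligands, receptors and latency gave 1 call, Itgav, the integrin subunit that binds latent TGF-beta, which was higher by 0.18 ± 0.04 in ApoE-Stab1-KO (limma adjusted p = 0.044) and whose call was lost without any of 11 of the 12 arrays. An unadjusted p under 0.05 was found for 3, 3 and 5 of these 20. Ltbp1, a latent TGF-beta binding protein, was at 0.18, 0.24 and 0.22 (limma adjusted p = 0.265, 0.0792 and 0.183). Of the same list, Inhbb was lower, at -0.07, -0.21 and -0.18 (limma adjusted p = 0.865, 0.297 and 0.535). Acvrl1 was at -0.12, -0.03 and -0.06 (limma adjusted p = 0.271, 0.880 and 0.764).

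Of 23 measured Hippo pathway genes Amotl2 was the 1 call, in ApoE-Stab1-KO, and 7, 3 and 3 had an unadjusted p under 0.05. Vgll4, which competes with YAP for TEAD, was at -0.29, -0.20 and -0.23 and did not pass (limma adjusted p = 0.0773, 0.234 and 0.253). Of 19 measured targets of MRTF and serum response factor, the other route by which actin tension reaches CCN genes, 0 passed in any comparison, with medians of 0.01, -0.02 and 0.03 against wildtype and an unadjusted p under 0.05 for 3, 1 and 1. Actb was at -0.14 and -0.19 in ApoE-KO and ApoE-Stab1-KO (limma adjusted p = 0.333 and 0.109). Thus the higher values of Thbs1, Ccn2 and Ankrd1 stood beside lists whose medians lay between -0.06 and 0.04.

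Receptors of thrombospondin-1 were the list with the most calls of the 8 related lists. In the comparisons of ApoE-KO, then ApoE-Stab1-KO, then ApoE-Stab2-KO with wildtype, 1, 2 and 3 of 12 genes passed, where 0.53%, 0.364% and 0.178% of all genes passed. An unadjusted p under 0.05 was found for 4, 4 and 4 of 12. Cd36 passed in each comparison, Itgav in ApoE-Stab1-KO, and Itga4 and Itga6, both lower, in ApoE-Stab2-KO. These comparisons share the wildtype arrays, and the related lists were chosen with earlier results of these data known. Nothing is therefore read from the counts of the lists. Cd36, the receptor for the anti-angiogenic region of thrombospondin-1 and a fatty acid and oxidized lipoprotein receptor, ran from 10.04 through 10.12 to 10.23 under wildtype plasma. It ran from 10.24 through 10.50 to 10.56 in ApoE-KO, from 10.27 through 10.57 to 10.75 in ApoE-Stab1-KO and from 10.44 through 10.47 to 10.59 in ApoE-Stab2-KO. No array of these 3 groups fell into the wildtype range. Cd36 rose by 0.32 ± 0.07, 0.40 ± 0.07 and 0.36 ± 0.07 (limma adjusted p = 0.0487, 0.00779 and 0.0244). The ApoE-Stab1-KO call held without any 1 array but was lost when only the arrays of these 2 groups were fitted (limma adjusted p = 0.0855), while the ApoE-KO call was lost without any of 10 of 11 arrays and the ApoE-Stab2-KO call without any of 9 of 12.

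Of the other 11 thrombospondin-1 receptor genes, Itgav rose in ApoE-Stab1-KO, as given for the latency genes, and the integrin subunits Itga4 and Itga6 fell in ApoE-Stab2-KO by -0.33 ± 0.05 and -0.20 ± 0.04 (limma adjusted p = 0.00546 and 0.0182). Itga4 ran from 8.45 through 8.59 to 8.67 under wildtype plasma and from 8.21 through 8.24 to 8.32 under ApoE-Stab2-KO plasma, without overlap. As for Pdgfb, the share of all genes lying wholly lower is not given here. The Itga4 call held without any 1 array, and the Itga6 call was lost without ApoE-Stab2-KO replicate 3, 4 or 6 or wildtype replicate 4. The list medians were 0.03, 0.03 and -0.01.

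Of the 10 endothelial markers 2, 1 and 0 passed in the same comparisons, all lower: Egfl7 fell by -0.27 ± 0.04 in ApoE-KO and by -0.21 in ApoE-Stab1-KO (limma adjusted p = 0.00136 and 0.0122), and Cldn5 by -0.27 ± 0.06 in ApoE-KO (limma adjusted p = 0.0459), a call lost without any of 10 of 11 arrays. A positive difference from wildtype was found for 1, 4 and 4 of the 10. Vwf, the von Willebrand factor gene, was at -0.06, 0.27 and 0.43 and did not pass (limma adjusted p = 0.932, 0.414 and 0.231). In ApoE-Stab1-KO all 8 fibroblast markers had a positive difference, 0 of them passing, with a list mean of 4.13 to 4.27 against 4.02 to 4.13 in wildtype. The part of these shifts in the values of Thbs1, Ccn2 and Ankrd1 was not tested.

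**Figure D3:**
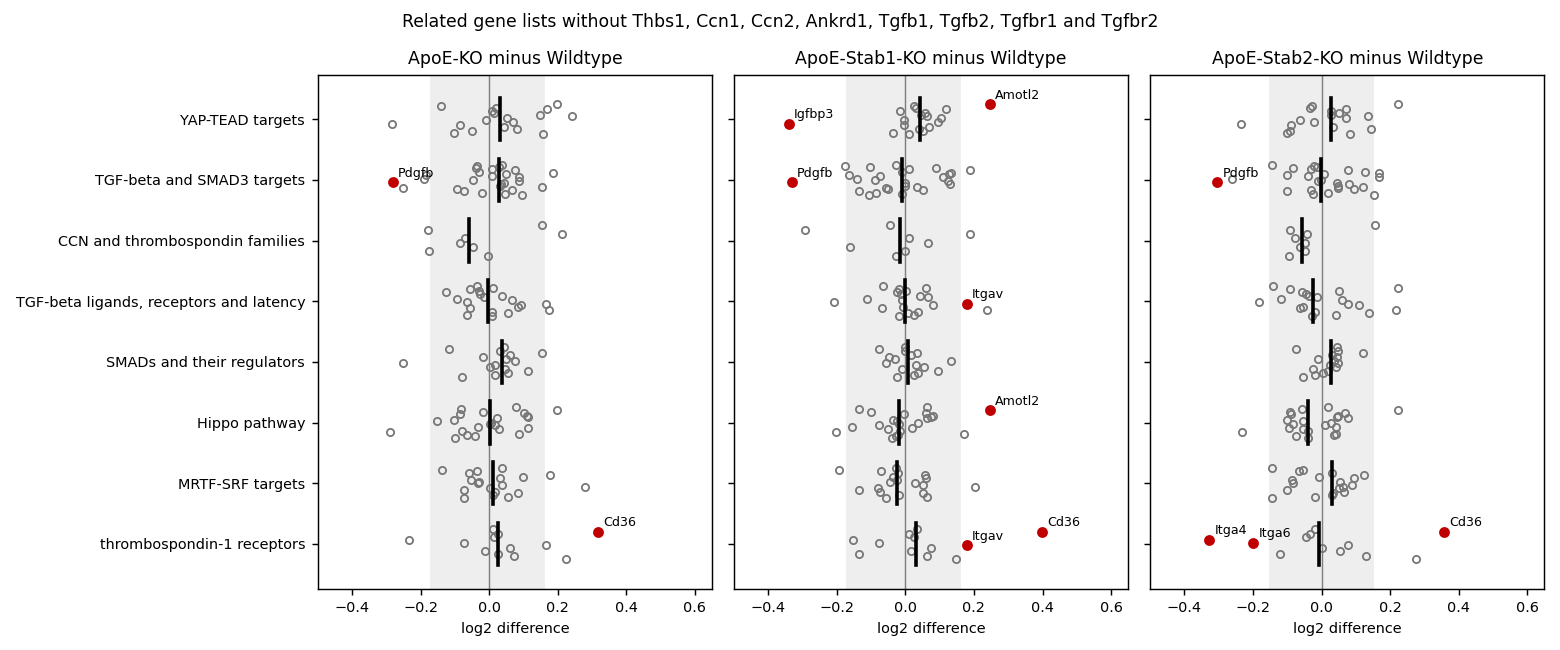
Difference in log2 value (horizontal axis) of every measured gene of 8 related lists, without the 8 genes themselves, in the 3 comparisons with wildtype plasma. Circles are genes, filled and named where the limma adjusted p was under 0.05, vertical bars are list medians, and the grey band spans the 5th to 95th percentile of all genes. List medians lie between -0.06 and 0.04, and Cd36 and Pdgfb are the genes named in all 3 panels.

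Across the 23 arrays the target genes followed each other in part, given here as a description of arrays that share their groups and 1 normalization. Pearson r was 0.65 for Thbs1 and Ccn2, 0.61 for Thbs1 and Ankrd1, and 0.62 for Ccn2 and Ankrd1. Once each array was set against its group's mean, these became 0.23, 0.17 and 0.30, so most of the association lay between groups. Ccn1 and Ankrd1 correlated at 0.59 over all arrays and 0.58 within groups. The association of Ccn2 with Tgfbr2 was negative, at -0.69 over all arrays and -0.76 within groups, and that of Tgfb1 with Tgfbr1 was -0.54 and -0.68. ApoE-KO replicate 3 had the highest Ccn2 (7.96) and lowest Tgfbr2 (10.19) of the 23 arrays. ApoE-Stab1-KO replicate 1 had the lowest Tgfb1 (10.15) and highest Tgfbr1 (7.39). The part of these single arrays in both associations was not tested.

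**Figure D4:**
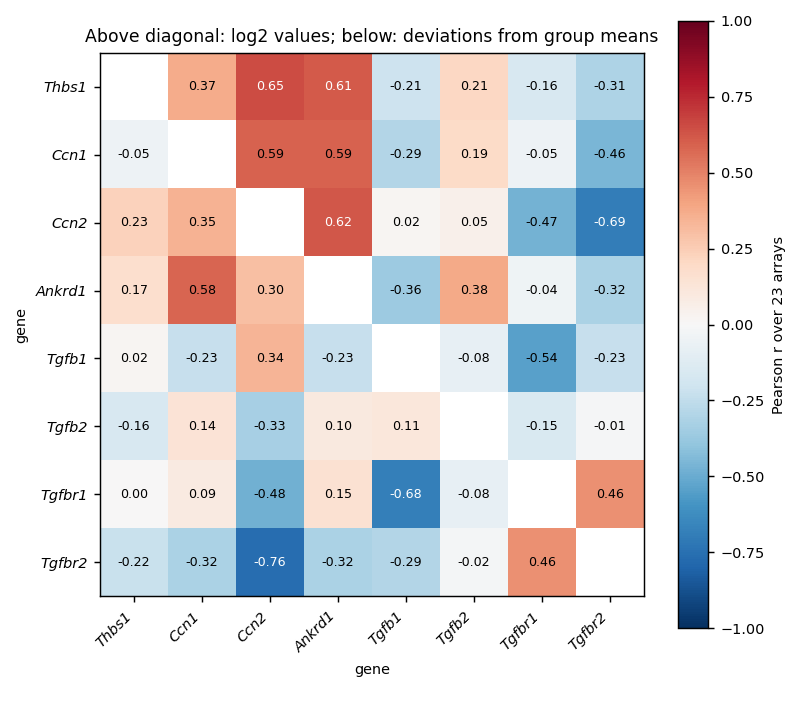
Pearson r (colour and number) between each pair of the 8 genes over 23 arrays, from log2 values above the diagonal and from deviations from the group means below it. Thbs1, Ccn2 and Ankrd1 correlate at 0.61 to 0.65 above the diagonal and at 0.17 to 0.30 below it, while Ccn1 with Ankrd1 gives 0.59 and 0.58.

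Among 19881 genes, the 5 most like Thbs1 over the 23 arrays were Sema3c, a secreted semaphorin (r = 0.82; 0.46 within groups), Slc16a1, a lactate transporter (0.79; 0.59), Scd1, the stearoyl-CoA desaturase (0.77; 0.46), Fiz1 (0.77; 0.57) and Cyp51, a sterol demethylase of cholesterol synthesis (0.76; 0.20). In that ranking Ccn2 was at place 63, Ankrd1 at 117 and Ccn1 at 1209. The 5 most like Ccn2 were Nrg1, the neuregulin gene (0.84; 0.62 within groups), Cdh2, N-cadherin (0.81; 0.76), Hcn4 (0.78; 0.69), Scd1 (0.77; 0.49) and Fdft1, the squalene synthase gene (0.76; 0.54). Thbs1 was at place 57, Ankrd1 at 80 and Ccn1 at 127, and Tgfbr2 was at 19850 of 19881, close to the other end of the list.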

How the data were processed

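RNA of 23 samples was measured on Affymetrix arrays. The deposited table holds log2 values made by the submitters with RMA, per the submitters' processing notes; for the RMA version and the genome build of the array annotation, nothing is given in the sources used here. Quantile normalization, part of RMA, gives all arrays almost the same distribution (sorted values differed by at most 0.0019), which removes any shift of all genes. Of 25428 probe sets, 24705 had 1 gene symbol and 723 none; for 1 symbol on 2 probe sets the brighter was kept, leaving 24704 genes.

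The values were taken as deposited. limma 3.58.1 in R 4.3.3 was fitted with 1 mean per group over all 23 arrays (19 residual and 4.19 prior degrees of freedom, median SE 0.07), with Benjamini-Hochberg adjustment over all genes and a threshold of 0.05 in 6 comparisons. Intervals are unadjusted 95% intervals. On simulated data for ApoE-KO against wildtype (24704 genes), 86 of 100 genes changed by 0.5 and 100 of 100 changed by 1 (log2) were recovered, with 11 false calls. The changed genes were drawn from all genes, with independent noise. Thbs1, Ccn1, Ccn2 and Ankrd1 had SEs of 0.09 to 0.13 in this comparison, so these shares do not apply to them. The number of arrays limits the precision. Scan dates or other batches were not tested. Tables and plots were made in Python 3.11.15 and matplotlib 3.10.9.

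The 8 genes and the gene lists were chosen with earlier results of these data known. Besides the 8 genes, the text drew on up to 4 genes of each list with the smallest moderated F-test p, every list gene that passed, and the 5 genes most correlated with Thbs1 and with Ccn2, without predicted genes, Riken clones or small RNAs. Other settings of the fit, the replicate number as a block and the omission of each array are described in the closing section. Actg1, Gp1ba, Hba-a1, Lyz2 and Stk3 were not analysed here.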

Additional observations from a re-analysis of the deposited data

Results flagged for a closer look

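In 32 sets of array values (8 genes in 4 groups) the highest or lowest array was set against its nearest neighbour by Dixon's ratio, a check that picks about 1 in 20 sets by chance, and 3 sets stood out. Ccn2 was at 7.96 in ApoE-KO replicate 3, where the next array of the group was at 7.52. Tgfbr2 was at 10.19 in the same array, where the next was at 10.36. Tgfb1 was at 10.79 in wildtype replicate 1, where the next was at 10.53.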

How the results depend on the processing

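Of 779 values of the 8 genes outside ApoE-KO minus Wildtype under other settings (centring each array, a filter on dim genes, trended and robust moderation, array weights, the replicate block, single probe sets, fits of 2 groups, protein-coding genes only, which was chosen after seeing the data, and the omission of each array), 27 had the opposite sign, all in 13 results whose value was within 0.08 of 0, and 1 passed the threshold. That 1 was Ankrd1 in ApoE-Stab1-KO minus Wildtype with the replicate block (0.49 ± 0.10, limma adjusted p = 0.0356), which made the count of the 8 genes passing there 1 instead of 0. Taken over all genes, the replicate numbers showed no clear pairing of the samples. Array deviations correlated at a median of 0.012 over 33 same-numbered pairs, of which 1 was over 0.1, and at -0.003 over 165 other pairs. These correlations cover all genes together and do not show whether the numbers pair the samples for Ankrd1 alone. In ApoE-KO minus Wildtype, the comparison that drew attention to Thbs1 and Ccn2, the count passing was 2. It was 1 to 2 when single arrays were left out. The Ccn2 call was lost without any of 7 of the 11 arrays, while the Thbs1 call held without any 1 array. These counts are a description from which nothing is read. With array weights the sign turned for Ccn1 in ApoE-Stab1-KO minus Wildtype (-0.0027), Tgfb1 (0.0377) and Tgfbr1 (-0.0309) in ApoE-Stab1-KO minus ApoE-KO, and Tgfb2 (0.0069) and Tgfbr1 (0.003) in ApoE-Stab2-KO minus ApoE-Stab1-KO. Leaving out single arrays turned signs in ApoE-Stab1-KO minus Wildtype for Ccn1 (-0.0128 to 0.0603), Tgfbr1 (-0.1425 to 0.0) and Tgfbr2 (-0.0014 to 0.0365); in ApoE-Stab1-KO minus ApoE-KO for Tgfb1 (-0.0552 to 0.0463) and Tgfbr1 (-0.0625 to 0.0801); in ApoE-Stab2-KO minus ApoE-KO for Ccn1 (-0.1347 to 0.0049), Tgfb2 (-0.0113 to 0.0977) and Tgfbr1 (-0.0661 to 0.0457); and in ApoE-Stab2-KO minus ApoE-Stab1-KO for Ankrd1 (-0.1708 to 0.005), Tgfb1 (-0.0954 to 0.0061), Tgfb2 (-0.1001 to 0.0099), Tgfbr1 (-0.0876 to 0.055) and Thbs1 (-0.0124 to 0.0907). The cause was not tested. Against wildtype, over all settings, Thbs1 stayed at 0.49 to 0.63 (ApoE-KO), 0.29 to 0.43 (ApoE-Stab1-KO; limma adjusted p = 0.0659 to 0.343) and 0.33 to 0.48 (ApoE-Stab2-KO; 0.0513 to 0.255), and Ankrd1 in ApoE-Stab1-KO at 0.44 to 0.54 (0.0356 to 0.176). Among the other genes, the replicate block ended the calls of Cd36 and Cldn5 in ApoE-KO, of Amotl2, Igfbp3 and Itgav in ApoE-Stab1-KO and of Itga6 in ApoE-Stab2-KO. Fitting only the arrays of the 2 groups ended those of Cd36 (limma adjusted p = 0.0855), Egfl7 (0.0712), Amotl2 (0.107), Igfbp3 (0.171) and Itgav (0.199) in ApoE-Stab1-KO and of Itga6 (0.0519) in ApoE-Stab2-KO, and array weights ended those of Igfbp3 (0.0763) and Itgav (0.0853). Tgfb2 has no value under the filter on dim genes, since its level is below the median.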
